A study of Homo sapiens with 96 samples.

Results

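The time course of K562 cells was examined for RNA editing late against early in culture. K562 is an established human line of chronic myeloid leukemia cells. The time course consists of 20 of the 96 libraries of the series, and the rule for its members uses their labels and no measured value: cells treated with imatinib, etoposide, romidepsin or the vehicle DMSO, each alone, for 6, 12, 24, 36 or 48 h. The 8 libraries of 6 and 12 h are called early and the 12 libraries of 24, 36 and 48 h are called late. Imatinib inhibits the BCR-ABL kinase, etoposide inhibits topoisomerase II and romidepsin inhibits histone deacetylases. Every combination of agent and time is 1 library of total RNA depleted of rRNA, so each agent contributed 2 early and 3 late libraries. All 20 libraries are of the same unmodified line. Nothing in the labels gives separate cultures, so p-values measure only the spread between these libraries. Hours of treatment and hours since the start of a culture cannot be told apart here.

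ADAR enzymes deaminate adenosine to inosine in double-stranded RNA, and inosine is read as G by the sequencing machine. Most human editing lies in introns and untranslated regions, often in clusters within inverted repeats that fold back on each other. A smaller number of sites lies in coding sequence, where editing can change the amino acid. The deposited list contains 4149 sites on GRCh38, and 4092 of them have levels. The editing level, a fraction between 0 and 1, is the mean that the authors took over those tools that found the site in a library. A level of 0 was read as no level recorded, and the list gives no read coverage at a site, so the depth behind a single level is unknown. A site can go from not recorded to recorded with more transcript or with more editing, and these cannot be told apart without coverage. K562 identity could not be checked against markers because the list contains no expression values.

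The names of the etoposide and romidepsin libraries conflict between sources. Of 39 listed sites that were tested by Sanger sequencing in one of these libraries, the level given for the tested sample was found under the named drug for 0 and under the other of these drugs, at the same hour, for 37 (tolerance 0.001). An exchange of both names leaves every late and early library in its period and changes the name of the agent. Read totals were matched by name, so an exchange could also change the read total set against each of these libraries. Read totals of the 20 libraries lay between 34004400 and 42378518. They averaged 38414268 early and 38253440 late, with a two-sided exact permutation test within agents giving p = 0.886. The other 76 samples of the series had between 30 and 452 recorded sites, with a median of 226.

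The following RNA sequences surround the sites on which the results turn, 5′ to 3′ and read from GRCh38, with the edited adenosine in capitals. The first 7 had higher levels late, and the last 5 had the smallest p for recording in more late libraries.
SON, coding sequence, chr21:33550999-33551027, plus strand: gcaacuggggcacuAgaguugccugggcc
COG3, coding sequence, chr13:45516222-45516250, plus strand: ucaccauuaaggaaAuuucccuggaccuc
PPIA, 3′ UTR, chr7:44802486-44802514, plus strand: auguucuugagggaAgcauauugggcuuu
GNL3L, 3′ UTR, chrX:54563283-54563311, plus strand: augcaccucuacuuAugauggggcuacuu
GNL3L, 3′ UTR, chrX:54563327-54563355, plus strand: guaaugugcaaauuAcggguuuaucagga
GNL3L, 3′ UTR, chrX:54561626-54561654, plus strand: aucucuuuaacugaAguacucuggcugga
MRPS22, 5′ UTR, chr3:139355220-139355248, plus strand: gucacuuagaggcaAgugacuuugagauc
C15orf39, intron, chr15:75202565-75202593, plus strand: cagcccaggcuggcAggaucgcccugagg
ABHD5, intron, chr3:43716498-43716526, plus strand: uguacaccuacuuuAuuaaaaagauugag
ARID1A, intron, chr1:26705038-26705066, plus strand: ugcuuaacagcugaAgaugcauggcaugu
HSP90AA1, intron, chr14:102086670-102086698, minus strand: cccgcugggggcgcAggcggaggaggccg
FLCN, 3′ UTR, chr17:17213526-17213554, minus strand: gcugugucccagcaAggaagggaaaccau

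Late libraries had more recorded sites than early ones, under every agent. With DMSO, 173 sites were recorded at 6 h, 154 at 12 h, 337 at 24 h, 492 at 36 h and 633 at 48 h. With imatinib, the numbers were 183, 162, 428, 606 and 578. Every late library of both agents had more sites than both early ones. The libraries named etoposide had 132, 184, 263, 335 and 538 recorded sites, and those named romidepsin had 102, 142, 287, 299 and 451. Over all agents the number was 154 ± 28 early (SD, n = 8) and 437 ± 132 late (SD, n = 12), a difference of 283 sites with p = 0.0002 (two-sided exact permutation test within agents, the smallest p that its 10000 arrangements can give). The ratio of the late to the early mean was 2.98 with DMSO, 3.11 with imatinib, 2.40 with the name etoposide and 2.83 with the name romidepsin. Per 10000000 reads, 40.3 ± 8.25 sites were recorded early and 114 ± 34.0 late, with p = 0.0002 in the exact permutation test. Of the 12 late libraries, 5 had more recorded sites than any of the other 76 samples. In turn, 49 of the other 76 samples had more recorded sites than the highest early library. Among them, a DMSO library of 6 h had 238 and a romidepsin library of 6 h had 269. Annotated sites, those already in editing databases, went from 133 ± 22.2 to 364 ± 111 per library, and unannotated ones from 20.8 ± 6.80 to 72.8 ± 27.0, each with p = 0.0002 in the exact permutation test. The plot of recorded sites by hours shows the 4 agents.

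**Figure D1:**
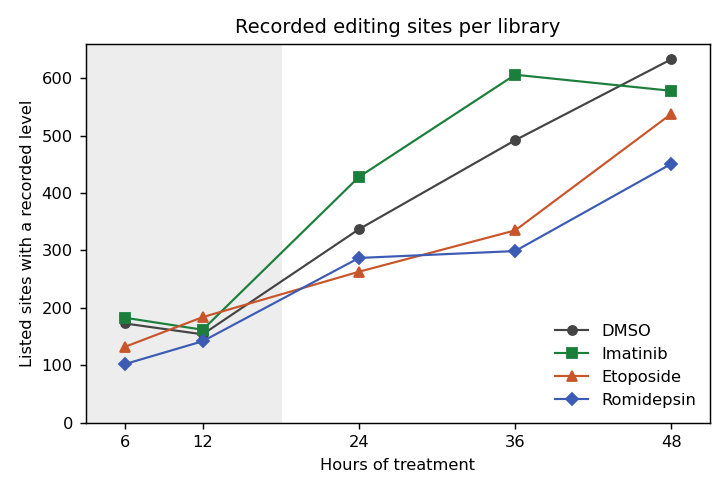
Number of listed editing sites with a recorded level (y axis) against hours of treatment (x axis), 1 point for each library and 1 line for each agent, with the early period shaded. The 8 early libraries sit between 102 and 184 sites and the 12 late libraries between 263 and 633.

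In all, 2156 of the listed sites were recorded in the time course. The early libraries together had 692 sites and the late libraries 1933, of which 469 were shared. The shared sites made up 67.8% of the early and 24.3% of the late sites. Sites recorded late only numbered 1464, in 683 host genes, while 223 were recorded early only, in 120 host genes. Against the 8 libraries of 36 and 48 h alone, so that both periods contain the same number of libraries, 1307 sites were recorded late only and 269 early only. Most sites of one period were seen rarely. Among the late-only sites, 655 were recorded in 1 library and 99 in at least 6 of 12, and among the early-only sites, 193 were recorded in 1 library and 1 in at least 4 of 8. Of the late-only sites, 369 (25.2%) were recorded in none of the other 76 samples, against 10.8% of the early-only sites and 8.10% of the sites of both periods. Sites of one period were chosen here by the values themselves, so these shares are descriptions.

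ADAR enzymes avoid G just upstream of the edited adenosine. The share with U just upstream was 51% of late-only sites, 49.3% of early-only sites and 52.0% of shared sites, while it was 49.3% over all sites with levels. The share with G just downstream was 45.1%, 43.0% and 49.0%, and 44.3% over all sites with levels. These are shares of pooled sites and were not tested. Per library, the share of recorded sites with U just upstream was 49.5% ± 1.74 early and 52.1% ± 1.68 late (SD, n = 8 and 12), a difference of 2.53 percentage points with p = 0.0050 in the exact permutation test. This share was higher late under all 4 agents, and the ranges of the periods overlapped.

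The genomic elements of the recorded sites shifted. The added sites were mostly intronic, whereas 3′ UTR sites and sites in very long intergenic non-coding RNAs (vlincRNAs) were recorded in similar numbers in both periods. Introns made up 51% ± 5.36 of the recorded sites early and 73.5% ± 6.37 late, 3′ UTRs 22.6% ± 4.62 early and 9.69% ± 3.10 late (SD, n = 8 and 12), each with adjusted p = 0.0009 over 9 elements in the exact permutation test. The intronic share did not overlap between the periods, with early libraries between 39.3% and 56.5% and late ones between 59.3% and 81.0%. The lowest of these values, 39.3% in the imatinib library of 6 h, stood apart from the other early libraries. In numbers, introns went from 77.9 ± 13.4 to 328 ± 121 sites per library, with p = 0.0002 in the exact permutation test. The 3′ UTR sites numbered 34.6 ± 8.83 and 39.8 ± 8.05, with p = 0.115 in the same test.

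The vlincRNA share was 11.8% ± 7.20 early and 4.34% ± 2.79 late, with adjusted p = 0.0048 in the exact permutation test. The number of vlincRNA sites was 18.9 ± 12.7 early and 18.2 ± 10.2 late (p = 0.867, exact permutation). At 6 h the vlincRNA share averaged 16.1%, at 12 h 7.52%, and at 48 h 2.70%, so part of the decrease lies within the early period. The 5′ UTR share rose from 4.53% ± 1.98 to 6.52% ± 1.67 (adjusted p = 0.0101, exact permutation), and 5′ UTR sites went from 7.0 ± 3.55 to 27.5 ± 7.32 per library. With 1 site kept for each cluster of nearby sites, the difference in the 5′ UTR share was 0.953 percentage points in place of 2.00 and missed the threshold (adjusted p = 0.131, exact permutation).

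Coding sites made up 3.19% ± 1.17 early and 1.76% ± 0.997 late (adjusted p = 0.0101, exact permutation), although their number was 4.88 ± 2.03 early and 6.92 ± 3.00 late (p = 0.0908, exact permutation). The share antisense to introns fell from 0.933% ± 0.660 to 0.362% ± 0.134 (adjusted p = 0.0171, exact permutation), while the number of such sites was 1.5 ± 1.07 and 1.58 ± 0.793 per library (p = 1.00, exact permutation). With DMSO this share was 0.103 percentage points higher late. The lncRNA intron share was 2.07% ± 1.2 and 1.12% ± 0.918, with adjusted p = 0.0447 in the exact permutation test, and leaving out single libraries ended this call in 13 of 20 cases. The number of lncRNA intron sites was 3.25 ± 2.25 early and 4.83 ± 4.00 late (p = 0.247, exact permutation). Shares in lncRNA exons (adjusted p = 0.247) and in other elements (adjusted p = 0.556) did not pass the exact permutation test. In numbers, lncRNA exon sites went from 3.38 ± 2.97 to 5.92 ± 3.65 per library (p = 0.0184) and sites in other elements from 1.88 ± 0.991 to 4.42 ± 2.61 (p = 0.0138), by exact permutation.

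**Figure D2:**
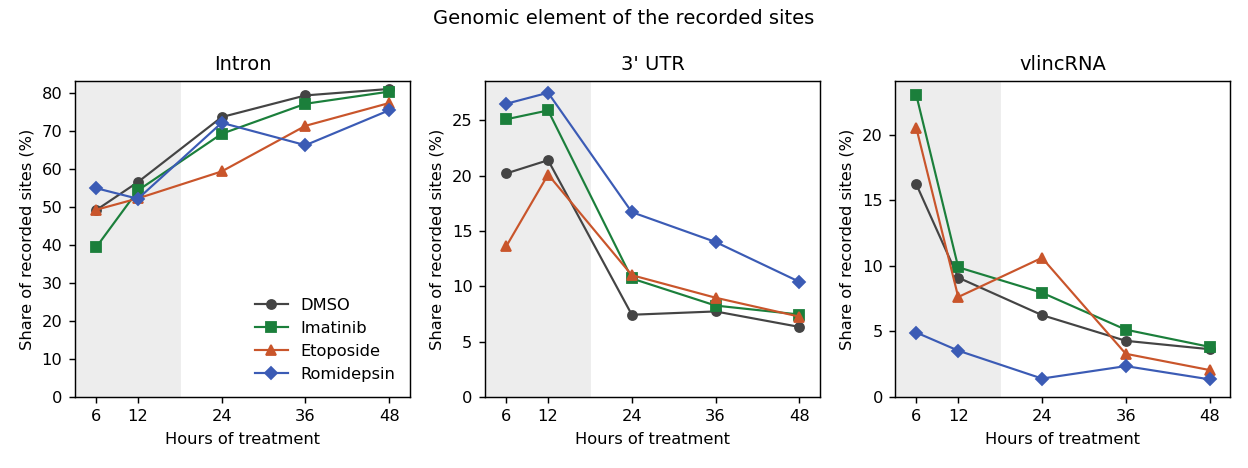
Share of a library's recorded sites (percent, y axis) that lies in introns, in 3′ UTRs and in vlincRNAs against hours of treatment (x axis), 1 point for each library, with the early period shaded. The intronic share lies between 39.3% and 56.5% early and between 59.3% and 81.0% late, and the 3′ UTR share lies between 6.32% and 16.7% late.

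Clustering, annotation and detection tools of the recorded sites also differed. Sites within 100 bases of another listed site on the same strand made up 75.3% ± 3.94 early and 64.4% ± 6.54 late (p = 0.0010, exact permutation). Annotated sites made up 86.8% ± 2.38 early and 83.5% ± 3.31 late (p = 0.0118, exact permutation). Without the libraries named etoposide, the annotated share differed by -2.23 percentage points with p = 0.106 in the exact permutation test. Sites that the list credits to SPRINT, a tool that looks for clustered mismatches, made up 68.8% ± 2.16 early and 61.1% ± 5.81 late (p = 0.0008, exact permutation). Sites credited to REDItools made up 85.2% ± 3.69 early and 78.5% ± 2.24 late (p = 0.0002, exact permutation). The part of the detection tools in the other differences was not tested.

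Levels moved in opposite ways for all recorded sites of a library and for the sites present in both periods. The median level over all recorded sites was 0.402 ± 0.0150 early and 0.338 ± 0.0247 late, and no late library, at 0.300 to 0.375, reached the lowest early one, at 0.377 (p = 0.0002, exact permutation). The mean level over the 61 sites recorded often enough in both periods, each taken relative to its own mean over libraries, was -0.0555 ± 0.0339 early and 0.0324 ± 0.0321 late, a rise of 0.0879 (p = 0.0002, exact permutation). This mean rose under all 4 agents, by 0.0987 with DMSO and by 0.0850 with imatinib. It went from -0.0803 at 6 h to -0.0308 at 12 h, 0.00576 at 24 h, 0.0361 at 36 h and 0.0552 at 48 h.

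As a description, sites recorded late only had library medians between 0.270 and 0.375, while the sites of both periods had medians between 0.322 and 0.401 early and between 0.333 and 0.433 late. Intronic sites had medians between 0.388 and 0.5 early and between 0.300 and 0.429 late. For 3′ UTR sites the medians lay between 0.125 and 0.224 early and between 0.170 and 0.273 late, so the late values reached further up for this element. Sites with a level of at least 0.5 numbered between 48 and 78 in an early library and between 99 and 216 in a late one.

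Of the 61 sites tested for level with limma, 13 were higher late (21.3% of those tested) and 0 were lower (0% of those tested). No site was lower at an unadjusted p under 0.05 in limma either. The estimate was above 0 for 53 of the 61 sites, with a median difference of 0.0876. All 19 tested 3′ UTR sites had estimates above 0, with a median of 0.104, and 7 of them passed. Of 27 intronic sites, 23 had estimates above 0, with a median of 0.0926, and 2 passed. Of 5 sites in 5′ UTRs 2 passed, and of 4 coding sites 2 passed. The 61 sites lie in 54 clusters and 46 genes, so neighbouring sites share a transcript. In the test of levels a site needed 3 early and 3 late libraries and 10 in all.

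**Figure D3:**
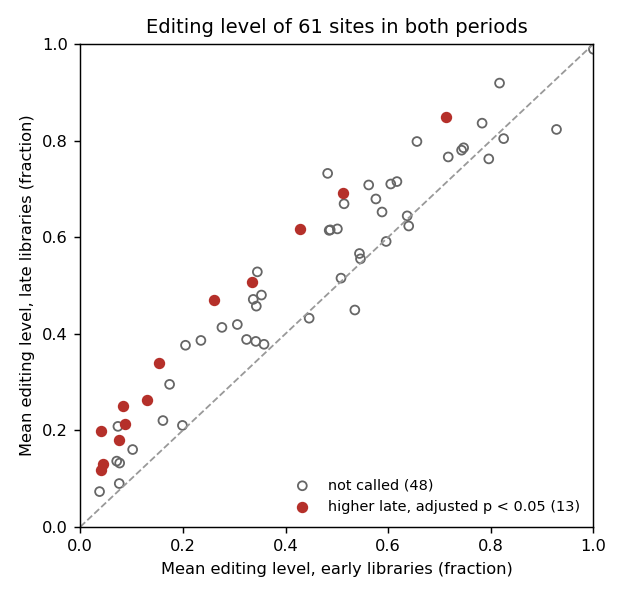
Mean editing level in the late libraries (y axis, fraction) against that in the early libraries (x axis, fraction) for the 61 sites recorded in at least 3 early and 3 late libraries and 10 in all, with the line of equal levels dashed. The 13 sites higher late are filled, and 53 of the 61 sites have a fitted difference above 0.

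The coding site of SON had the smallest p. SON is a scaffold protein of nuclear speckles that takes part in splicing. With DMSO its level was 0.0200 at 6 h, 0.0300 at 12 h, 0.130 at 24 h, 0.210 at 36 h and 0.259 at 48 h. With imatinib it was 0.0200, 0.0400, 0.150, 0.210 and 0.273. All late libraries of both agents lay above all their early ones. The libraries named etoposide gave 0.0300, 0.0700, 0.2, 0.190 and 0.271, and those named romidepsin 0.0200, 0.0900, 0.130, 0.190 and 0.180. Over the 20 libraries, the early and late levels did not overlap. The difference was 0.159 ± 0.0253 (SE) with adjusted p = 3.06e-04 in limma.

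COG3, a subunit of the Golgi tethering complex COG, has the second coding site that passed. It was recorded in 6 of 8 early libraries at 0.154 ± 0.0578 and in all 12 late ones at 0.340 ± 0.0842, with a difference of 0.213 ± 0.0402 (SE) and adjusted p = 0.00139 in limma. Early levels lay between 0.0900 and 0.255, and 1 late level, 0.174 at 24 h under the name romidepsin, lay within this range.

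Other coding sites were recorded less often. The Sanger tables of the study list the coding sites of SON, COG3 and NEIL1 given here as positive. They list OR51I1 position 5441226, the AKAP11 site and BLCAP position 37519170 as negative, and do not list the other coding sites named here. The paper reports other coding sites of OR51I1 as positive by Sanger sequencing. BLCAP, a small membrane protein, had a site at chromosome 20, position 37519170, recorded in 4 early and 6 late libraries at 0.324 ± 0.0588 and 0.388 ± 0.0671. Its neighbour at position 37519161 was recorded in 3 early libraries at 0.225 ± 0.0397 and in 1 late library at 0.128. NEIL1, a DNA glycosylase, had sites at chromosome 15, positions 75353745 and 75353746. The first was recorded in 4 early and 6 late libraries at 0.588 ± 0.118 and 0.652 ± 0.137, and the other in 1 early and 3 late libraries. A site of IGFBP7, an insulin-like growth factor binding protein, at chromosome 4, position 57110068, was recorded in 0 early and 4 late libraries at 0.513 ± 0.151, and in none of the other 76 samples. The olfactory receptor gene OR51I1, at chromosome 11, position 5441226, had a site recorded in 0 early and 5 late libraries at 0.254 ± 0.0946.

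A site of AKAP11, an anchor of protein kinase A, at chromosome 13, position 42313048, was recorded in 1 early and 4 late libraries. The DACT3 sites at chromosome 19, positions 46649480 and 46649597, were recorded in 3 early and 3 late and in 4 early and 5 late libraries. Of these 11 coding sites recorded in at least 4 libraries, BLCAP position 37519161 and both DACT3 sites were recorded in a higher share of the early than of the late libraries. The SON site, recorded in all 20 libraries, was not in the test of recording, and none of the other 10 passed it.

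PPIA, which encodes cyclophilin A, carried the 3′ UTR site with the smallest p. Its level was 0.05 at 6 h and 0.133 at 12 h with DMSO, and then 0.234, 0.313 and 0.316. With imatinib it was 0.0838 and 0.0700 early and 0.158, 0.257 and 0.294 late. The early and late ranges over all 20 libraries did not overlap, with 0.133 the highest early and 0.158 the lowest late level. The difference was 0.169 ± 0.0280 (SE), with adjusted p = 3.06e-04 in limma.

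GNL3L, a GTP-binding protein of the nucleolus, had 3 sites in its 3′ UTR among the 10 with the smallest p. At position 54563297 the level was 0.260 ± 0.0758 early and 0.470 ± 0.115 late (adjusted p = 0.00383, limma), and this site was recorded in all 20 libraries and in 75 of the other 76 samples. At 54563341 it was 0.0874 ± 0.0362 and 0.213 ± 0.0721 (adjusted p = 0.00687, limma). At 54561640 it was 0.0450 ± 0.0122 and 0.130 ± 0.0302 (adjusted p = 0.0215, limma), a call that was lost without the DMSO library of 12 h (adjusted p = 0.0640, limma) and with a filter of 2 early and 2 late libraries and 6 in all (adjusted p = 0.0874, limma). The number of GNL3L sites recorded per library was 2.75 early and 2.92 late. With 3 listed sites in this gene, the number could hardly rise, while the levels could.

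The site in the 5′ UTR of MRPS22, a protein of the small mitochondrial ribosomal subunit, was recorded in 4 early libraries at 0.512 ± 0.0776 and in 12 late ones at 0.692 ± 0.150 (adjusted p = 0.00447, limma). No early level was recorded with imatinib. The imatinib levels at 24 and 36 h, 0.431 and 0.498, lay within the early range of 0.407 to 0.571. With no block for the agent, the adjusted p of the MRPS22 site in limma was 0.108. Sites in the 3′ UTRs of FAM20B, a kinase of the proteoglycan linker, and of SPCS3, a subunit of signal peptidase, went from 0.0756 ± 0.0291 to 0.179 ± 0.0567 and from 0.129 ± 0.0512 to 0.263 ± 0.0903 (adjusted p = 0.00687 for both, limma). The site in the 3′ UTR of SEC61A1, the channel of the translocon, went from 0.0400 ± 0.0141 in 7 libraries to 0.118 ± 0.0451 in 12 (adjusted p = 0.0427, limma). Leaving out single libraries gave it adjusted p-values between 0.0150 and 0.101 in limma.

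The 7 sites recorded in all 20 libraries were those of SON, PPIA, FAM20B and SPCS3, both neighbouring sites of GNL3L and an intronic site of PIP5K1C, a lipid kinase. In a fit on these 7 sites alone, 6 were higher late by limma. The PIP5K1C site, at chromosome 19, position 3648327, was at 0.199 ± 0.0840 early and 0.210 ± 0.0719 late, and its late values lay within the range of the early ones except for 0.350.

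**Figure D4:**
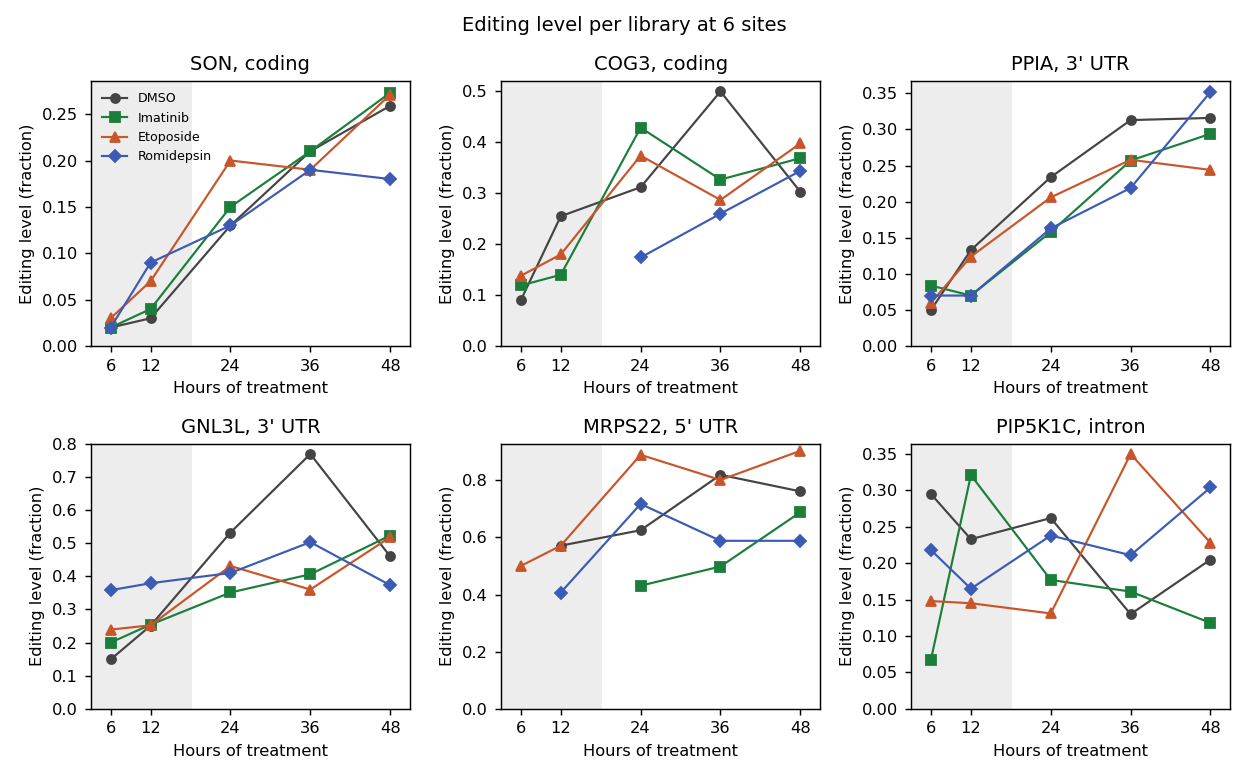
Editing level (fraction, y axis) against hours of treatment (x axis) at 6 sites, 1 point for each library in which a level was recorded, with the early period shaded. The SON and PPIA levels do not overlap between the periods, and the PIP5K1C levels lie between 0.0676 and 0.350 over both.

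Site by site, recording was tested with an exact Mantel-Haenszel test with agents as strata for the 553 sites recorded in at least 4 libraries and not in all. No site passed after adjustment (0% in each direction). The smallest adjusted p was 0.0518. The smallest p that this test can give is 1.0e-04, and a single site at that p would not pass over 553 tests. The lack of calls thus depends on the number of tests and does not show that recording was alike. At an unadjusted p under 0.05 in this test, 132 sites were recorded more often late and 6 less often. With limma on recorded or not as an alternative, 140 sites passed as more often recorded late, 25.3% of those tested, and 5 as less often, 0.904%. The direction of the exact test was towards late for 461 sites and towards early for 78. A site could reach 4 libraries through late ones alone, and its direction was then fixed by the filter. The directions and medians given here are therefore descriptions. So are the numbers of sites in each direction at an unadjusted p under 0.05 and with limma. Among 400 intronic sites it was towards late for 361, with a median difference of 33.3 percentage points in the share of libraries. Among 34 sites in 5′ UTRs it was towards late for 33, with a median of 41.7. Among 56 sites in 3′ UTRs it was towards late for 34, with a median of 12.5, and among 32 vlincRNA sites for 11, with a median of -10.4. Annotated and unannotated sites both had a median of 33.3. Over all 553 sites the median was 33.3.

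The 5 sites with the smallest p were not past the threshold and are given as values. An unannotated intronic site of C15orf39 was recorded in 0 of 8 early and 11 of 12 late libraries (p = 3.00e-04, exact Mantel-Haenszel, adjusted p = 0.0518). Its levels were 0.452, 0.606 and 0.701 at 24, 36 and 48 h with imatinib, and 0.676 and 0.856 at 36 and 48 h with DMSO. It was recorded in 4 of the other 76 samples. An intronic site of ABHD5, a co-activator of lipolysis, was recorded in 0 early and 10 late libraries at 0.311 ± 0.229, and in 1 other sample. An intronic site of ARID1A, a subunit of the SWI/SNF chromatin remodeler, was recorded in 0 early and 9 late libraries at 0.373 ± 0.145, and in 19 other samples.

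HSP90AA1, a heat shock protein, and FLCN, a regulator of lysosomal signaling, each had a site recorded in 2 early and all 12 late libraries. The HSP90AA1 levels were 0.107 and 0.195 early, and between 0.342 and 0.601 late. The FLCN levels were 0.0800 and 0.0900 early and 0.106 ± 0.0404 late, so these overlapped. Sites of RIT1, HNRNPD and TSC1 were also recorded in 0 early and 10 late libraries. The site of TSC1, a component of the TSC complex upstream of mTOR, was recorded in none of the other 76 samples. The choice of these 3 sites was made with their values in view, as was that of MTCH1, IQCB1 and DCPS in the next sentence. In the other direction, 5 sites passed limma on recorded or not: in AJUBA (8 of 8 early and 2 of 12 late libraries), LINC00534 (5 and 0), MTCH1 (6 and 1), IQCB1 (8 and 5) and DCPS (5 and 2).

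Host genes were compared by the number of their listed sites recorded per library, because sites of a gene share its transcript. Of 141 genes tested, 39 had more recorded sites late (27.7%) and 2 had fewer (1.42%), by exact permutation within agents with Benjamini-Hochberg adjustment. The median difference over all 141 genes was 1.00 site. Genes were admitted by their recorded values in early and late libraries together. A gene could thus be admitted through late libraries alone, and its direction was then fixed by the filter. Among the called genes, ABHD5, PLA2G12A, ARID1A, ZCCHC7, C1D and ZFPM2-AS1 had no recorded site in any early library. The same held for NUP35, NCOA1, WAC, SRPK2, TMEM135 and ADNP. The numbers of genes in each direction and the median difference are therefore descriptions. As a percentage of a library's recorded sites, which sets each gene against the rise of all sites, 8 genes were higher late and 11 lower in the same exact test. The 8 include ABHD5, PLA2G12A, ARID1A and ZCCHC7, which had no early site. Counted as numbers, the called genes were thus mostly higher late, and counted as percentages mostly lower.

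The largest difference was in RAB3GAP2, a subunit of a complex that acts on Rab GTPases in vesicle traffic, with 39 listed sites. With DMSO, 0 of its sites were recorded at 6 h and at 12 h, and 18, 13 and 15 at 24, 36 and 48 h. With imatinib the numbers were 0 and 0, and then 13, 7 and 15. The libraries named romidepsin had 6 and 9 early, and then 19, 13 and 12. Over all libraries the number was 3.00 ± 3.96 early and 14.1 ± 3.15 late (adjusted p = 0.0121, exact permutation). The early libraries with 8 and 9 sites overlapped the late one with 7.

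RB1CC1, which starts autophagy as part of the ULK1 complex, went from 1.75 ± 0.707 to 7.17 ± 3.04 sites. KPNA1, an importin of nuclear transport, went from 0.25 ± 0.463 to 5.42 ± 3.85 sites and was not uniform among the agents. With DMSO it had 9 sites at each late time, while no site of it was recorded in any of the 5 libraries named romidepsin. Its adjusted p was 0.0176 in the exact permutation test and 0.0376 as a percentage of the recorded sites.

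MRPL3, which encodes a protein of the large mitochondrial ribosomal subunit, went from 1.12 ± 0.991 to 4.33 ± 1.67 sites and MRPS22 from 1.25 ± 0.886 to 4.42 ± 2.61 sites (adjusted p = 0.0121 for each, exact permutation). In the same test, adjusted p was 0.0121 for CD164, a sialomucin, from 1.62 ± 1.06 to 4.42 ± 1.56 sites, and for SREBF2, a transcription factor of sterol synthesis, from 0.750 ± 0.886 to 3.42 ± 2.31. CALU, a calcium-binding protein of the endoplasmic reticulum, went from 0.750 ± 1.16 to 3.92 ± 1.78, FRRS1, a ferric reductase, from 0.625 ± 1.19 to 4.17 ± 2.76, and ABHD5 from 0 in every early library to 2.42 ± 1.56. PHF3, a regulator of transcription elongation, went from 0.25 ± 0.463 to 3.58 ± 2.91 (adjusted p = 0.0188, exact permutation).

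NEK7, a kinase of the NIMA family, went from 0.125 ± 0.354 to 2.83 ± 2.48 sites (adjusted p = 0.0231, exact permutation), and this call was lost without the imatinib library of 6 h (adjusted p = 0.0577, exact permutation). PNISR, a nuclear serine and arginine rich protein, went from 0.25 ± 0.463 to 2.58 ± 2.47, and ENSG00000288635 from 0.375 ± 1.06 to 2.75 ± 3.62. For PNISR and ENSG00000288635 the adjusted p of the exact permutation test was 0.0413, and it went above 0.05 without single libraries in 14 and 16 of 20 cases. Of the genes given above with their number of sites per library, ABHD5, KPNA1 and NEK7 also passed as higher by the exact permutation test on percentages, and the others with more sites did not.

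The 2 genes with fewer sites late passed under both scales. AJUBA, a LIM domain scaffold, had between 1 and 5 sites in each early library. It had 0 in all late libraries but 2, which had 2 sites (imatinib, 24 h) and 4 sites (the name romidepsin, 36 h). Its mean went from 2.12 ± 1.55 to 0.5 ± 1.24 (adjusted p = 0.0121, exact permutation). LINC00534, a long non-coding RNA whose sites are mostly listed as vlincRNA, had 15 and 7 sites early with DMSO and then 5, 6 and 9. With imatinib it had 12 and 10, and then 6, 3 and 4. Its mean went from 6.38 ± 5.63 to 2.75 ± 3.19 (adjusted p = 0.0413, exact permutation), and this call was lost without single libraries in 12 of 20 cases. The other 9 genes that were lower as percentages had similar or fewer sites in number, such as MTCH1 with 4.12 early and 4.25 late and TEP1, a telomerase-associated protein, with 4.50 and 1.92.

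**Figure D5:**
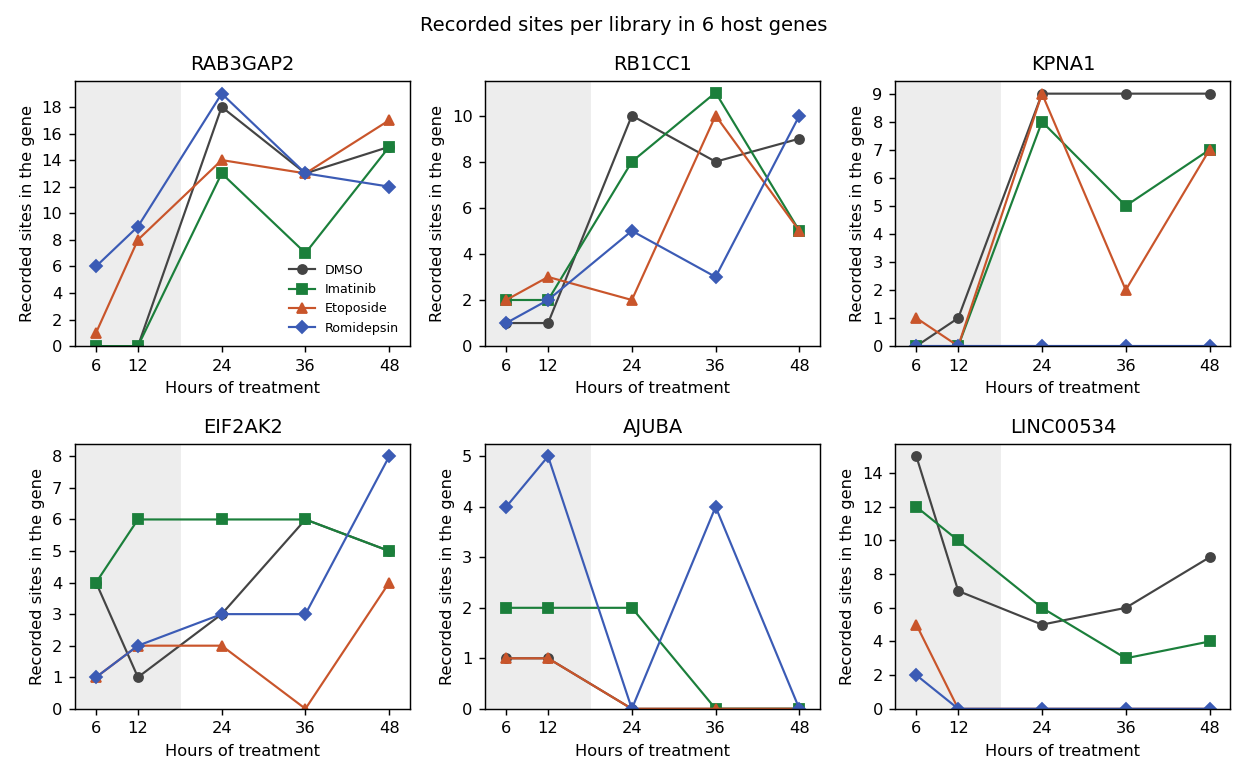
Number of recorded sites (y axis) in 6 host genes against hours of treatment (x axis), 1 point for each library, with the early period shaded. RAB3GAP2, RB1CC1 and KPNA1 had more sites late, AJUBA and LINC00534 fewer, and EIF2AK2 did not pass the test.

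Gene lists were counted beside these. Of 17 genes known for recoding, 9 had listed sites, and the list had 3.75 ± 1.16 recorded sites per library early and 7.83 ± 4.02 late. Of 3 genes tested, 0 had more and 0 had fewer sites, with a median difference of 0.833 site against 1.00 over all genes tested. Within the list, FLNA, an actin crosslinker, had sites in 0 early and 7 late libraries, and COPA, a coatomer subunit, in 0 early and 4 late ones. The listed sites of FLNA lie in its 5′ UTR and those of COPA in introns, so none of them is a coding site. Of 14 genes of the response to double-stranded RNA, 2 had listed sites. EIF2AK2, the kinase PKR, had 9 sites in its 3′ UTR and 2.62 recorded early and 4.25 late per library, which did not pass the test. RIGI had 1 listed site, recorded in 0 libraries.

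Of 20 genes of DNA repair, 4 had listed sites. The list had 0.375 ± 0.744 recorded sites early and 3.67 ± 3.75 late, most of them in the nuclease gene MRE11, with 0.25 early and 3.00 late. MRE11, the 1 tested gene of this list, did not pass. A list of 24 genes held erythroid genes and OR51I1, an olfactory receptor gene included because it lies by the beta-globin genes. Of these 24 genes, 2 had listed sites, TFRC and OR51I1. TFRC, the transferrin receptor, had its single intronic site recorded in 0 early and 8 late libraries. OR51I1, the 1 tested gene of this list, did not pass. The 34 genes with listed sites whose symbol begins with ZNF, among them the antisense RNA ZNF350-AS1 and ZNF876P, had 3.38 ± 2.20 recorded sites early and 3.42 ± 3.42 late. ZNF514, the one tested member, had 2.38 early and 1.17 late, which passed only as a percentage (adjusted p = 0.0188, exact permutation).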

How the data were processed

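The deposited file is 1 list of sites with an editing level for each library. The level is a fraction that the authors averaged over the tools finding the site there. Per the submitters' processing notes, TopHat2 2.1.1, Picard 2.0.1 and SAMtools 1.9 were used with GRCh38. The authors then ran REDItools, RED-ML and SPRINT, and filtered sites by variants, repeats, mappability, level and detection in more than 1 sample. They also filtered by tool and, for unannotated sites, by genomic location, with rules chosen from Sanger results. Sites removed there cannot appear, while single sites negative by Sanger could stay listed. Libraries were strand-specific. Genomic elements and annotation are the authors' own.

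Columns were mapped by label, and 34 columns of samples of other publications were not used here. Of 4149 listed sites, 57 found by Sanger only have no level. Read totals and Sanger results come from the supplement of the study, where 67 listed sites are negative. Genes were assigned by overlap on the same strand with GENCODE release 44 (3793 sites, 373 of them in more than 1 gene, whose gene is then uncertain). Sequences were read from GRCh38, where the base on the listed strand was A for 4145 sites.

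Library values were compared by exact permutation of the periods within agents (10000 arrangements, two-sided, smaller tail doubled, smallest p 0.0002). Sites were compared by the exact Mantel-Haenszel test and, for levels, by limma with agent as block. Host genes with at least 3 listed sites and 10 recorded values were compared by exact permutation. P-values were adjusted by the Benjamini-Hochberg method, with a threshold of 0.05. Tests were tried on simulated data. The time course as a subject and the gene lists were chosen with earlier results of these data known, while its libraries follow from the labels. Named were, per direction, the 10 sites with the smallest p and the 15 genes with the largest difference among those called, the 5 smallest p where none was called, and coding sites recorded in at least 4 libraries. A gene that this rule names is not reported here. Alternatives were other filters, scales, tests and definitions of late, and each library or agent left out. Python 3.11.15, numpy 2.4.6, scipy 1.17.1, pandas 2.3.3, R 4.3.3 and limma 3.58.1 were used.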

Additional observations from a re-analysis of the deposited data

Results flagged for a closer look

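In groups of 8 early libraries, a value was singled out when its gap to the nearest other was more than 0.526 of the range. Groups with fewer recorded levels had a larger cut-off. For normally distributed values, chance alone gives such a gap in about 1 of 20 groups. Of 56 groups looked at, 5 had such a value. The intronic share was 39.3% in the imatinib library of 6 h, against 49.1% to 56.5% in the other early libraries. The etoposide library of 12 h had 10 sites in lncRNA exons, against at most 4 in the others, and a lncRNA exon share of 5.43%, against at most 2.31%. The imatinib library of 12 h was the one early library with sites in NEK7 (1 site) and in ENSG00000288635 (3 sites). Where all other libraries had 0, any count above 0 is singled out, so the rate of 1 in 20 does not apply to these genes. The causes were not tested.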

How the results depend on the processing

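Leaving out single libraries kept the direction and the side of the threshold for the differences in recorded sites (263 to 302), median level (-0.0675 to -0.0611) and shared site level (0.0771 to 0.0993), and for the annotated (-3.94 to -2.64), clustered (-11.9 to -9.89), SPRINT (-8.60 to -6.72), REDItools (-7.70 to -5.76), intron (20.7 to 24.4), vlincRNA (-9.12 to -5.85), 3′ UTR (-13.7 to -12.0), 5′ UTR (1.56 to 2.44) and coding shares (-1.76 to -1.10). It ended the call for the lncRNA intron share (-1.29 to -0.617) in 13 cases and for the intron antisense share (-0.747 to -0.395) in 1, without the romidepsin library of 12 h. It brought the lncRNA exon share (-1.05 to -0.0725) past the threshold in 1, without the etoposide library of 6 h, and turned the direction of the uncalled share of other elements (-0.399 to 0.0109) without the imatinib library of 6 h. Site recording calls stayed at 0 in both directions, where the smallest p of the exact test limits what can pass. Levels called higher numbered 9 to 17 and lower 0 to 1, the latter without the etoposide library of 6 h or of 48 h.

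Genes called with more sites numbered 18 to 40 and with fewer 1 to 2. Counts of more sites fell below 26 without imatinib 6 h (18), 12 h (24) or 48 h (23), etoposide 12 h (25) or 48 h (25), or DMSO 6 h (22), 12 h (21), 36 h (25) or 48 h (25). Without DMSO, imatinib or etoposide, 0 genes had more and 0 had fewer sites, and without romidepsin 18 and 1. With an agent left out, the test has fewer arrangements and its smallest p is larger. The loss of calls does not by itself show dependence on that agent. With 24 h left out, 1 gene had fewer sites, as with genes of at least 2 sites and 5 values. As percentages, 8 had more and 11 fewer, and with limma 63 had more.

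The lncRNA intron share missed the threshold without DMSO (-0.488), etoposide (-0.988), romidepsin (-1.17) or 48 h (-0.826), with no agent block (-0.951) and with sites of at least 2 methods (-0.837). The intron antisense share did so without imatinib (-0.417), etoposide (-0.444) or 48 h (-0.566) and with levels above 0.2 (-0.518). The coding share did so without romidepsin (-1.13) or 48 h (-1.23), with levels from 0.1 (-0.994) and above 0.2 (-0.875). The 5′ UTR share did so without imatinib (1.97), with 1 site per cluster (0.953) and with levels above 0.2 (0.530), and the annotated share without etoposide (-2.23) or 48 h (-2.46). With 1 site per cluster the lncRNA exon share passed (-1.16). Site recording gave 53 sites more often and 2 less often recorded late with a filter of 6 libraries, 27 and 2 with 1 site per cluster, and 140 and 5 with limma. These numbers are descriptions, because sites could pass the filters through late libraries alone. Levels gave 22 higher with missing levels as 0, 6 higher among the sites in all 20 libraries, and 1 lower without etoposide. The causes were not tested.

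No paired analysis was possible because the libraries carry no shared replicate numbers, and agents served as blocks. Each agent and time is 1 library, and the list, without coverage, does not tell an uncovered site from an unedited one.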

Other observations

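Outside the time course, the series contains 2 further libraries of 6 h with these agents alone. The DMSO library had 238 recorded sites and the romidepsin library 269, against 102 to 184 in the 8 early libraries of the time course and 263 to 633 in its 12 late ones. In all, 49 of the other 76 samples had more recorded sites than the highest early library. These libraries are in neither period and count above only among the other 76 samples.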
